A study of Mus musculus with 6 samples.

Results

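The genes described here are those of the unfolded protein response and the integrated stress response, given as a list of 46 in 2 arms. The ER arm holds 21 chaperone, folding and degradation genes with targets of ATF6 and XBP1. The ATF4/CHOP arm holds 25 genes of translation stress signalling and amino acid supply. All 21 genes of the ER arm and 24 of the ATF4/CHOP arm had a probe set named for 1 gene, so 45 of the 46 were measured, among 19938 genes tested in all. The proline synthesis gene Pycr1 had no such probe set, so its expression was not analysed here and it appears only in the promoter search.

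RNA came from bone marrow stromal cells (BMSCs), adherent marrow cells that can form osteoblasts or adipocytes, of wild-type mice (WT, 3 arrays) and of mice labelled as a 188KO (KO188, 3 arrays), which the series title gives as the microRNA miR-188. All mice were on a C57BL/6 background and 6 months old. Both groups were kept in osteogenic induction medium holding 10% fetal calf serum, 0.05 mM of an ascorbic acid phosphate, 10 mM beta-glycerophosphate (the labels write 10Mm) and dexamethasone at 100 nM. The labels call the arrays of a group biological replicates. They do not say whether each was its own mouse, which part of the locus was deleted, or for how long the cells were cultured, so p-values measure only the spread between these samples. No label names a batch holding both groups, and genotype and any culture difference shared by the KO188 samples cannot be told apart.

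The endoplasmic reticulum (ER) folds secreted proteins, and in cells making bone matrix the main load is collagen. When unfolded proteins accumulate, 3 membrane sensors respond. IRE1 (gene Ern1) splices Xbp1 mRNA, ATF6 is cut to release a transcription factor, and both raise chaperone and degradation genes. PERK (gene Eif2ak3) phosphorylates eIF2alpha, as do kinases that sense amino acid shortage, viral RNA or heme loss. That slows translation in general and favours translation of ATF4, whose targets include CHOP (gene Ddit3), amino acid enzymes and transporters. Much of this control acts on splicing, cleavage, phosphorylation and translation, which these arrays do not measure.

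The promoters of the members were searched for known sequence elements, apart from any value measured here. RefSeq windows (GRCm38.p6) were found for 40 of the 46 genes and not for Atf6, Hyou1, Manf, Slc7a5, Slc7a3 and Creb3l1. The 250 bases before each gene start were searched on both strands for the ER stress response element, ERSE, spelled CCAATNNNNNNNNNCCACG, which binds NF-Y at one end and ATF6 or XBP1 at the other. Of 18 ER arm genes with a window, 8 held it (44.4%), against 0 of 22 genes of the ATF4/CHOP arm and 35 of 27025 genes in all (0.13%). The 8 genes are printed 5′ to 3′ on the strand of the match, with 8 flanking bases on each side and the ends of the element in capitals. Hsp90b1 held the element at 2 places.

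Hspa5, chr2:34772017-34772051, gene on the plus strand: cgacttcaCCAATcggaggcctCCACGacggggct
Hsp90b1, chr10:86705630-86705664, gene on the minus strand: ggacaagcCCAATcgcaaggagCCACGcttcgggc
Hsp90b1, chr10:86705525-86705559, gene on the minus strand, match on the opposite strand: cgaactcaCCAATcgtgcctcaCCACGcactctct
Calr, chr8:84847067-84847101, gene on the minus strand, match on the opposite strand: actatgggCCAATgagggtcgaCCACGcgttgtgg
Canx, chr11:50325792-50325826, gene on the minus strand: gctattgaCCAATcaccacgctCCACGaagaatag
Pdia6, chr12:17266483-17266517, gene on the plus strand: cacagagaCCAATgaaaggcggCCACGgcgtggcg
Dnajc3, chr14:118937819-118937853, gene on the plus strand: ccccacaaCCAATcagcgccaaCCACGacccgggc
Creld2, chr15:88819512-88819546, gene on the plus strand, match on the opposite strand: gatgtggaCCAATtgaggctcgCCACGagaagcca
Syvn1, chr19:6046524-6046558, gene on the plus strand: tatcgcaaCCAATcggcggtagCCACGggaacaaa

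Hspa5, which encodes the chaperone BiP, also held the unfolded protein response element core TGACGTG, found in 1 of the 18 ER arm genes and in 499 of all 27025 genes (1.85%). The 170 bases before its start (chr2:34771920-34772089, plus strand, GRCm38.p6) are shown with that core and the ends of the ERSE in capitals.

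Hspa5: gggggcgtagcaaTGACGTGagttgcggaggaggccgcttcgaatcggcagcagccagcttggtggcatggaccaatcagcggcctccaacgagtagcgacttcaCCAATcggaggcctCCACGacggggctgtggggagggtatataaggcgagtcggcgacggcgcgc

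In the ATF4/CHOP arm the core of the C/EBP-ATF response element, spelled TGATGNAA, was found in 5 of 22 genes (22.7%), against 1 of 18 in the ER arm and 1056 of 27025 in all (3.91%). The 4 measured genes of that arm are shown with the core in capitals. The other was Pycr1, and the ER arm gene was Herpud1.

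Atf3, chr1:191183428-191183451, gene on the minus strand, match on the opposite strand: ggacttggTGATGcAAgtgcgaga
Chac1, chr2:119351041-119351064, gene on the plus strand, match on the opposite strand: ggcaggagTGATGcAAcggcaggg
Asns, chr6:7693217-7693240, gene on the minus strand: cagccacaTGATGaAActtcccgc
Vldlr, chr19:27216812-27216835, gene on the plus strand, match on the opposite strand: aggagcgcTGATGcAActattgct

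These matches are a description of the letters in these windows. The arms were listed as targets of ATF6 and XBP1 or of ATF4 and CHOP. Their shares are therefore not independent of how the lists were made. A window without a match says nothing of other spellings or of sites farther away.

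Values are log2 probe set levels, so a difference of 1 is a doubling. A gene's level is used across genes only as a percentile of probe set brightness, which depends on the probes as well as on the RNA. Array medians over all probe sets lay between 7.43 and 7.50 and were higher on each KO188 array than on each WT array. Arrays of a group correlated at 0.9988 to 0.9993 across genes, which are not independent replicates. Of all tested genes 29.8% were called, meaning a limma adjusted p under 0.05 for KO188 minus WT. Higher calls made up 13.3% and lower calls 16.5%. After median centring of the arrays 27.9% of calls were higher in place of 44.5%, and with quantile normalization 40.5%. The members are bright: all 45 lay above the level of 6.72, the 95th percentile of 1194 chemosensory receptor genes, which serve as a rough guide to genes that are not expressed. Calls were more frequent among bright genes. At or above the 50th percentile of level 52% of genes were called, 21.5% higher and 30.5% lower, and at or above the 80th percentile 18.5% and 41%.

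In KO188 the CHOP and ATF3 genes and 3 stress effector genes were higher, most ER chaperone and folding genes were slightly lower or not past the test, and 4 amino acid synthesis genes were slightly lower. Of the 21 ER arm genes 9 fell and 2 rose, with a median change of -0.11. Of the 24 genes of the ATF4/CHOP arm 9 rose and 6 fell, with a median of 0.03 that became -0.02 with median centring (8 higher, 9 lower). Over all tested genes the median was -0.01. Over the 45 members 57.8% were called, which is near the 59.5% of all genes at or above the 80th percentile of level, and 20 of the 21 ER arm genes and 13 of the 24 others lay in that range. A call with a log2 change of at least 0.3 was made for 5 of the 45 members and for 10.3% of all tested genes. Of such bright genes 41% were called lower, with a median change of -0.06, against 9 of the 21 ER arm genes. The ER arm's lower calls became 15 with median centring, where 53.9% of bright genes were lower, and 14 with dim genes left out or an eBayes trend (47.2% and 47.4%). Its median was -0.16 with median centring and -0.07 with quantile normalization, against -0.11 and -0.04 for bright genes. Median centring also brought lower calls for 9 members not called in the main fit: Pdia3, Sdf2l1, Creld2, Edem1, Atf6, Herpud1, Atf4, Shmt2 and Aldh18a1. Of these, Herpud1 and Atf4 passed in no other alternative. The rest also passed with dim genes left out and with an eBayes trend. The difference between the arms was not tested.

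**Figure D1:**
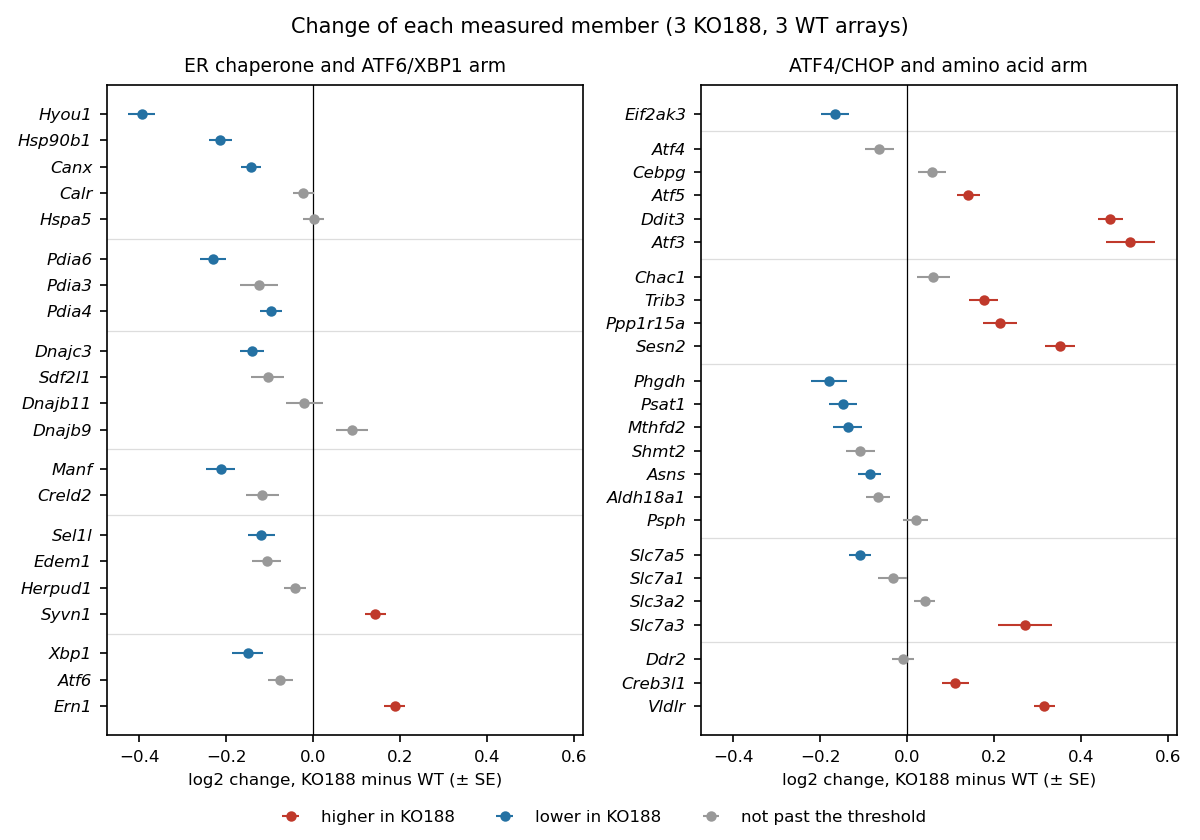
Log2 change (KO188 minus WT, 3 arrays each) of the 45 measured members with its standard error, in the ER arm (left) and the ATF4/CHOP arm (right). Grey lines separate roles, from chaperones to sensors on the left and from the sensor kinase to other members on the right. Red points rose and blue points fell in limma's test, and grey points did not pass. The changes run from -0.39 (Hyou1) to 0.51 (Atf3).

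Among the 5 ER chaperones, 3 fell and 0 rose. At or above the 80th percentile of level 41% of all genes were lower. Hyou1, an Hsp70-type chaperone and exchange factor for BiP, moved most in the ER arm. It read 11.61, 11.56 and 11.64 on the WT arrays and 11.20, 11.24 and 11.19 on the KO188 arrays. Every KO188 value lay below every WT value, as did those of 15 of the 21 ER arm genes, while 2 lay wholly above. In the ATF4/CHOP arm 10 of 24 lay wholly above and 8 wholly below. Of all tested genes 41.5% had groups that did not overlap. That share was not taken for bright genes alone, among which calls were more frequent. The log2 change of Hyou1 was -0.39 (SE 0.031, limma adjusted p = 1.7e-04), a level 1.31-fold lower. Hsp90b1, the ER form of Hsp90, fell by 0.21 (13.19 ± 0.02 in WT and 12.98 ± 0.02 in KO188, SD, n = 3 each). Canx, the membrane lectin chaperone calnexin, fell by 0.14, and its soluble counterpart Calr (-0.02, adjusted p = 0.55) did not pass.

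Hspa5, the gene most used as a readout of ER stress, read 13.36, 13.33 and 13.34 in WT and 13.34, 13.36 and 13.34 in KO188. The groups overlapped. Its change was 0.0018 (SE 0.024, limma adjusted p = 0.97). Few genes were brighter (percentile of level 99.6), and how far such bright probe sets still follow the amount of RNA was not tested. The 8 ERSE genes printed above ran from -0.23 (Pdia6) to 0.14 (Syvn1), with 4 lower, 1 higher and a median of -0.13. The 10 ER arm genes whose window held no match had 3 lower, 1 higher and a median of -0.10. Of all genes at or above the 80th percentile of level 41% were lower and 18.5% higher. Hyou1 (-0.39), Manf (-0.21) and Atf6 (-0.07) had no window and stand in neither group. The groups with and without a match were not compared by a test.

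Pdia3, Pdia4 and Pdia6 encode protein disulfide isomerases, which form and shuffle disulfide bonds. Pdia6 fell by 0.23 (limma adjusted p = 0.0015) and Pdia4 fell by 0.10 (0.026). Pdia3 (-0.12, adjusted p = 0.084) did not pass, with KO188 arrays at 12.68, 12.52 and 12.58 against 12.72 on each WT array. It passed without KO188 replicate 1 (0.012). The Pdia4 call was lost without WT replicate 1 (0.086), WT replicate 2 (0.063), KO188 replicate 2 (0.065) or KO188 replicate 3 (0.058). Quantile normalization also ended it (-0.03, adjusted p = 0.40). A second, dimmer Pdia4 probe set read 0.09 the other way (adjusted p = 0.22 among all probe sets), and the mean of both changed by -0.0039.

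Of the 4 BiP co-chaperone genes, 1 passed. Dnajc3, whose product p58IPK also restrains eIF2alpha kinases, fell by 0.14 (adjusted p = 0.0092). Sdf2l1 (-0.10), Dnajb11 (-0.02) and Dnajb9 (0.09), which encodes an IRE1-bound J protein, did not pass, though Dnajb9 passed without KO188 replicate 3 (0.029). Of 2 genes for secreted stress proteins, Manf fell by 0.21 (adjusted p = 0.0034) and Creld2 (-0.12, adjusted p = 0.060) did not pass.

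The degradation genes were split. Syvn1, the ubiquitin ligase HRD1 that removes misfolded ER proteins, rose by 0.14 (WT 10.88, 10.86 and 10.91, KO188 11.03 on each array, limma adjusted p = 0.0051). Sel1l, the adaptor that holds HRD1, fell by 0.12 (adjusted p = 0.031), a call lost without WT replicate 2 (0.091), WT replicate 3 (0.092), KO188 replicate 1 (0.052) or KO188 replicate 3 (0.078). Edem1, which marks glycoproteins for disposal, changed by -0.11 (adjusted p = 0.055) and Herpud1 by -0.04 (0.31). Neither passed.

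The sensors and their factors also differed in direction. Ern1 read 10.63, 10.61 and 10.64 in WT and 10.82, 10.80 and 10.82 in KO188, with no overlap. It rose by 0.19 (SE 0.024, limma adjusted p = 0.0014), or 1.14-fold. Xbp1, the transcript that IRE1 splices, read 12.47, 12.38 and 12.48 in WT and 12.31, 12.27 and 12.31 in KO188, again with no overlap. It fell by 0.15 (SE 0.035, adjusted p = 0.018), and the 2 splice forms were not read apart here. The Xbp1 call was lost without WT replicate 1 (0.067), WT replicate 3 (0.060) or KO188 replicate 2 (0.057). Atf6 read 10.86, 10.79 and 10.85 in WT and 10.76, 10.77 and 10.74 in KO188. These did not overlap either, but its change of -0.07 (SE 0.028, adjusted p = 0.099) did not pass.

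In the ATF4/CHOP arm the PERK gene Eif2ak3 fell. It read 9.25, 9.23 and 9.32 in WT and 9.12, 9.11 and 9.07 in KO188. Its log2 change was -0.17 (SE 0.032, limma adjusted p = 0.0087). Atf4 itself read 10.38, 10.35 and 10.44 in WT and 10.35, 10.32 and 10.31 in KO188. Here 1 KO188 array lay above the lowest WT array, and the change of -0.06 (SE 0.033, adjusted p = 0.21) did not pass. With median centring it was -0.12 and passed (adjusted p = 0.032). ATF4 is set largely at translation, so its transcript level is no reading of its activity.

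The largest rises of the whole list were in 2 other transcription factor genes. Atf3, a stress-induced repressor, read 9.42, 9.37 and 9.46 in WT and 9.94, 10.03 and 9.82 in KO188. The KO188 arrays were all higher and spread more widely. Atf3 rose 1.43-fold (log2 change 0.51, SE 0.057, limma adjusted p = 7.8e-04). Ddit3, the gene of the pro-apoptotic factor CHOP, read 9.79, 9.79 and 9.81 in WT and 10.31, 10.24 and 10.24 in KO188. It rose 1.38-fold (0.47, SE 0.029, adjusted p = 6.6e-05), with far more distance between the groups than within them. Changes of this size were not rare: 3.94% of all tested genes changed by more than Atf3 in either direction and 4.69% by more than Ddit3. Atf5, a further ATF4-like factor, rose by 0.14 (adjusted p = 0.0067), and Cebpg, a partner of ATF4 (0.06, adjusted p = 0.26), did not pass.

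Of the 4 stress effectors 3 rose. Sesn2, which encodes the leucine-sensing mTORC1 inhibitor sestrin 2, read 10.05, 10.04 and 10.08 in WT and 10.44, 10.44 and 10.35 in KO188. All KO188 values were above all WT values. Sesn2 rose 1.28-fold (0.35, SE 0.035, limma adjusted p = 4.8e-04). Ppp1r15a, the GADD34 subunit that directs a phosphatase to eIF2alpha and so ends the response, rose by 0.21 (adjusted p = 0.0071). Trib3, a CHOP-induced pseudokinase, rose by 0.18 (adjusted p = 0.0071). Chac1, which degrades glutathione and is a well-known ATF4 target, changed by 0.06 (adjusted p = 0.31) and did not pass. Of the 10 genes for the sensor, transcription factors and effectors 6 rose and 1 fell, with a median of 0.16, where 21.5% of all genes at or above the 50th percentile of level were called higher. Their counts were 6 and 1 with any 1 array left out, and 6 and 2 with median centring.

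**Figure D2:**
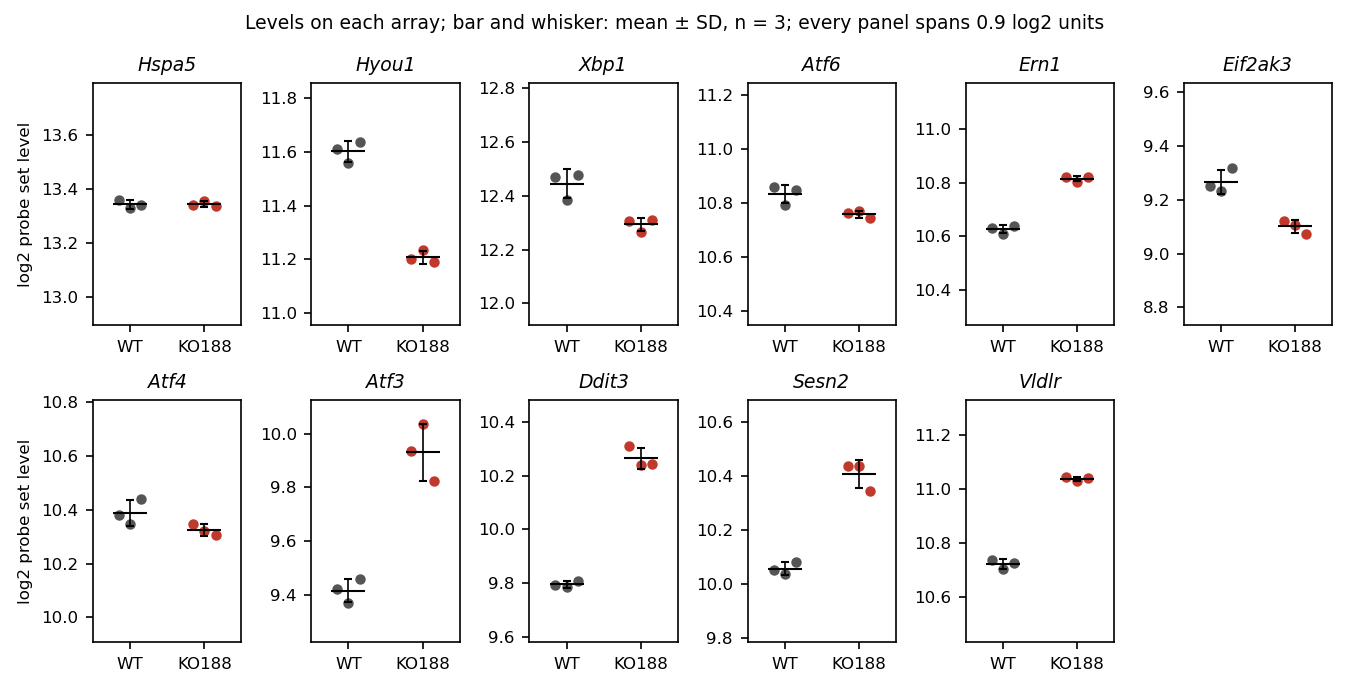
Log2 probe set level of 11 members on each of the 3 WT (grey) and 3 KO188 (red) arrays, with mean and SD as bar and whisker. Every panel spans 0.9 log2 units around its own centre. The WT and KO188 points of Atf3, Ddit3, Sesn2, Vldlr, Ern1, Hyou1, Xbp1, Eif2ak3 and Atf6 do not overlap, while those of Hspa5 and Atf4 do.

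Amino acid synthesis genes, which ATF4 also controls, had no higher call. Of 7 measured 4 fell and 0 rose, where 30.5% of all genes at or above the 50th percentile of level and 41% at or above the 80th were lower. In the serine pathway, Phgdh, its entry enzyme, fell by 0.18 (adjusted p = 0.018) and Psat1 fell by 0.15 (0.014), whereas Psph (0.02, adjusted p = 0.67) did not pass. Phgdh read 11.07, 11.03 and 11.02 in WT and 10.92, 10.78 and 10.89 in KO188. The mitochondrial folate gene Mthfd2 fell by 0.14 (adjusted p = 0.024), and Shmt2, the serine hydroxymethyltransferase beside it (-0.11, adjusted p = 0.055), passed only without KO188 replicate 1 (0.015) among the fits with an array left out. Asns, the asparagine synthetase gene and a standard ATF4 readout, fell by 0.09 with limma adjusted p = 0.0499, just inside the threshold. Aldh18a1, which begins proline synthesis (-0.07, adjusted p = 0.12), did not pass.

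These calls rest on small differences. That of Asns was lost without any 1 of the 6 arrays (0.058 to 0.12), with quantile normalization (0.10) and with robust eBayes (0.055). Phgdh was lost without WT replicate 1 (0.070) or WT replicate 2 (0.056). Mthfd2 was lost without WT replicate 1 (0.083), WT replicate 3 (0.079), KO188 replicate 1 (0.069) or KO188 replicate 3 (0.077). Quantile normalization ended the Mthfd2 call too (-0.09, adjusted p = 0.072). Psat1 passed in each of the 6 fits.

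Of the 4 amino acid transporter genes 1 rose and 1 fell. Slc7a5, the leucine carrier LAT1, fell by 0.11 (adjusted p = 0.020), lost without WT replicate 1 (0.069) or WT replicate 2 (0.061). Its partner chain Slc3a2 (0.04, adjusted p = 0.28) and the arginine carrier Slc7a1 (-0.03, 0.51) did not pass. Slc7a3, a second arginine carrier and the dimmest member at the 38.7th percentile of level, rose by 0.27 (7.07, 6.91 and 7.15 in WT, 7.29, 7.36 and 7.29 in KO188, adjusted p = 0.017). That call was lost without KO188 replicate 2 (0.062) or KO188 replicate 3 (0.0502). Over the 11 synthesis and transport genes 5 fell and 1 rose, with a median of -0.09, again beside 41% lower and a median of -0.06 among bright genes. The number that fell was 1 without WT replicate 1, 2 without WT replicate 2, and 3 without WT replicate 3 or KO188 replicate 3. The 6 lower calls of the whole ATF4/CHOP arm likewise became 2 without WT replicate 1 and 3 without WT replicate 2.

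The last 3 genes of the arm are less direct members. Vldlr, a lipoprotein receptor gene that PERK signalling can induce, read 10.74, 10.70 and 10.72 in WT and 11.04, 11.03 and 11.04 in KO188. The groups were far apart for their spread. Vldlr rose 1.25-fold (0.32, SE 0.024, limma adjusted p = 1.6e-04). Creb3l1, the gene of OASIS, an ER-anchored factor of osteoblasts that promotes type I collagen transcription, rose by 0.11 (adjusted p = 0.037). That call was lost with median centring (0.23) and without WT replicate 1 (0.10), WT replicate 2 (0.091), WT replicate 3 (0.091), KO188 replicate 1 (0.081) or KO188 replicate 3 (0.089). Ddr2, a collagen receptor gene (-0.0085, adjusted p = 0.85), did not pass.

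Each gene's log2 values were set relative to its 6-array mean and averaged over the members on each array. For the 21 ER arm genes this average was 0.04, 0.03 and 0.06 in WT and -0.03, -0.04 and -0.06 in KO188. For the 10 genes of the sensor, factors and effectors it was -0.10, -0.10 and -0.06 in WT and 0.10, 0.11 and 0.05 in KO188. For the 11 amino acid supply genes it was 0.03, -0.0025 and 0.04 against -0.02, -0.02 and -0.03. Each of these means kept the groups apart, and KO188 replicate 3 was the lowest KO188 array in all of them. No test was made on these means. No such mean was taken over all genes at or above the 80th percentile of level, whose median change was -0.06.

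**Figure D3:**
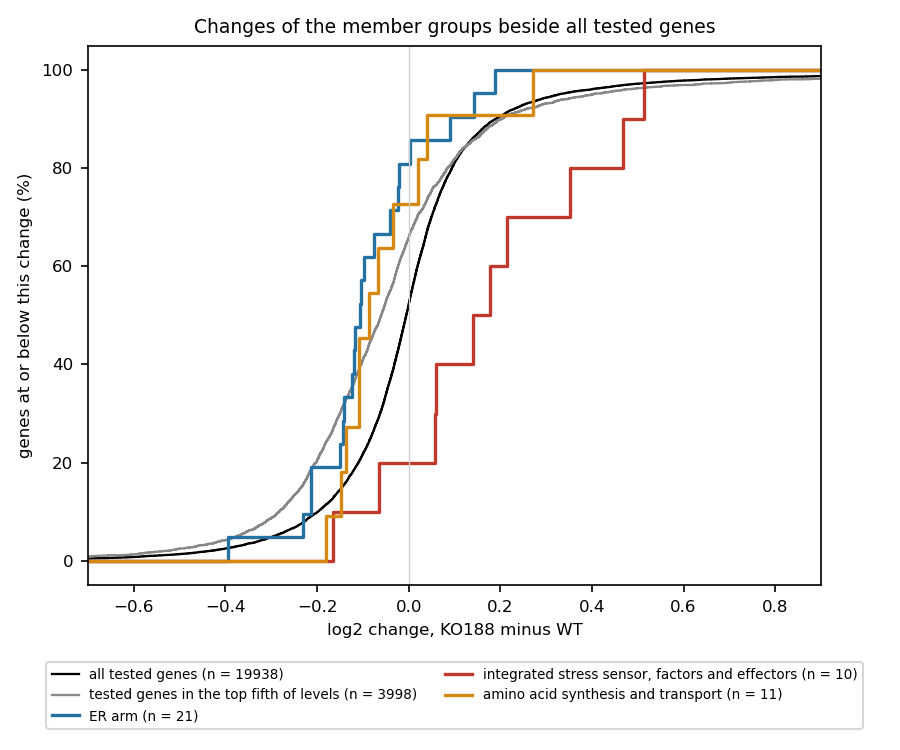
Cumulative share of genes (vertical axis, percent) at or below each log2 change (horizontal axis, KO188 minus WT) for all 19938 tested genes, the 3998 at or above the 80th percentile of level, the 21 ER arm genes, the 10 genes of the sensor, factors and effectors, and the 11 amino acid supply genes. The axis ends at -0.7 and 0.9. The red curve of the factors and effectors has the highest median, 0.16. The medians of the ER arm (-0.11) and amino acid supply (-0.09) lie left of that of all genes (-0.01), and the genes of high level have a median of -0.06.

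Other genes of these pathways were read from lists set apart from the members. Their counts stand beside the same background: 13.3% of all tested genes higher and 16.5% lower, and 18.5% and 41% at or above the 80th percentile of level. In the folding list of oxidoreductases, prolyl isomerases and glucosidases 11 of 26 fell and 4 rose (median -0.05). Dnajc10, a disulfide reductase of the degradation path, fell by 0.45 and P4hb, which is both a disulfide isomerase and a subunit of collagen prolyl hydroxylase, fell by 0.27. Fkbp14, a collagen prolyl isomerase gene, rose by 0.32. Of 28 translocation and glycosylation genes 18 fell and 1 rose (median -0.16), led by the signal peptidase subunit Spcs3 (-0.40) and by Stt3b (-0.32) and Rpn2 (-0.24) of the oligosaccharyl transferase. Of 26 genes of transport to the Golgi 10 fell and 0 rose (median -0.06). Sec23a, a COPII coat gene needed for collagen export, fell by 0.58, from 12.05 to 11.47, and Uso1 (-0.23) and Tmed10 (-0.20) fell less. Among 22 degradation genes 8 fell and 3 rose (median -0.06). Rnf139, a ubiquitin ligase gene, rose by 0.46, while Ufd1 (-0.28) and Man1b1 (-0.22) fell.

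Genes around the sensors showed mixed calls. Of 16 genes for sensors, processing and OASIS relatives 3 rose and 2 fell (median 0.03, or -0.02 with median centring). Creb3 rose by 0.28, Nfya, an NF-Y subunit gene, rose by 0.19, and Bok, a BCL2 family gene, fell by 0.38. Among 15 genes for eIF2alpha kinases, phosphatases and eIF2B 2 rose and 7 fell (median -0.07). Eif2ak2, which encodes the RNA-sensing kinase PKR and is itself interferon-induced, rose 3.06-fold, from 10.44 to 12.06 (log2 change 1.62, limma adjusted p = 7.9e-07). Ppp1r15b, the gene of the constitutive counterpart of GADD34, rose by 0.38, and Eif2b5, the catalytic eIF2B subunit gene, fell by 0.42.

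Further genes listed as targets of ATF4 and CHOP had calls in both directions. Whether each is a target in these cells was not tested. Of 27 genes 7 rose and 4 fell (4 and 5 with median centring, median 0.01, or -0.05 with median centring and -0.0024 with quantile normalization). Ddit4l, an mTORC1 inhibitor gene, rose 2.28-fold, Klhl24 rose 1.68-fold and Nupr1, a stress-induced chromatin protein gene, rose 1.38-fold. Of 18 aminoacyl-tRNA synthetase genes, a large group of ATF4 targets, 6 fell and 0 rose, and all 18 estimates were negative on the values as deposited, from -0.27 to -0.01. These 33.3% called compare with 41% lower among bright genes, and 13 of the 18 were lower with median centring. Hars (-0.27), Qars (-0.20) and Vars (-0.17) had the lowest p. Of 22 further genes of serine, folate and proline metabolism, with some of glutamate and glutamine, 8 fell and 0 rose (median -0.08). Glul (-0.38), of glutamine synthesis, Gcsh (-0.59), of the glycine cleavage system, and Mthfd2l (-0.56) had the lowest p. Of 21 further amino acid transporters 7 rose and 6 fell (median 0.0036, or -0.05 with median centring). Slc36a1, a lysosomal carrier gene, rose by 0.54 and the cationic carrier gene Slc7a2 rose by 0.42, while the glutamine carrier gene Slc38a1 fell by 0.61.

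Of 18 cytosolic heat shock genes 9 fell and 3 rose (median -0.16), with Fkbp4 (-0.43), Hspb1 (-0.38) and Hsp90aa1 (-0.27) lower. Of 16 mitochondrial stress genes 5 fell and 0 rose (median -0.07), or 31.2% called against 29.8% of all genes, among them Hspd1 (-0.14), Spg7 (-0.18) and Htra2 (-0.14). Of 20 genes for secreted bone matrix and its enzymes 8 rose and 7 fell (median 0.0027, or -0.05 with median centring). Col6a2 rose by 0.68, Postn rose by 0.47 and Dcn, the decorin gene, fell by 1.22. Apart from the lists where a second median is given, no median of these pathway lists changed sign with median centring or quantile normalization. Median centring raised the lower calls from 10 to 17 for transport to the Golgi, from 2 to 5 for the sensors and OASIS relatives, and from 5 to 9 for mitochondrial stress genes. Quantile normalization raised the higher calls among the sensors and OASIS relatives from 3 to 5.

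**Figure D4:**
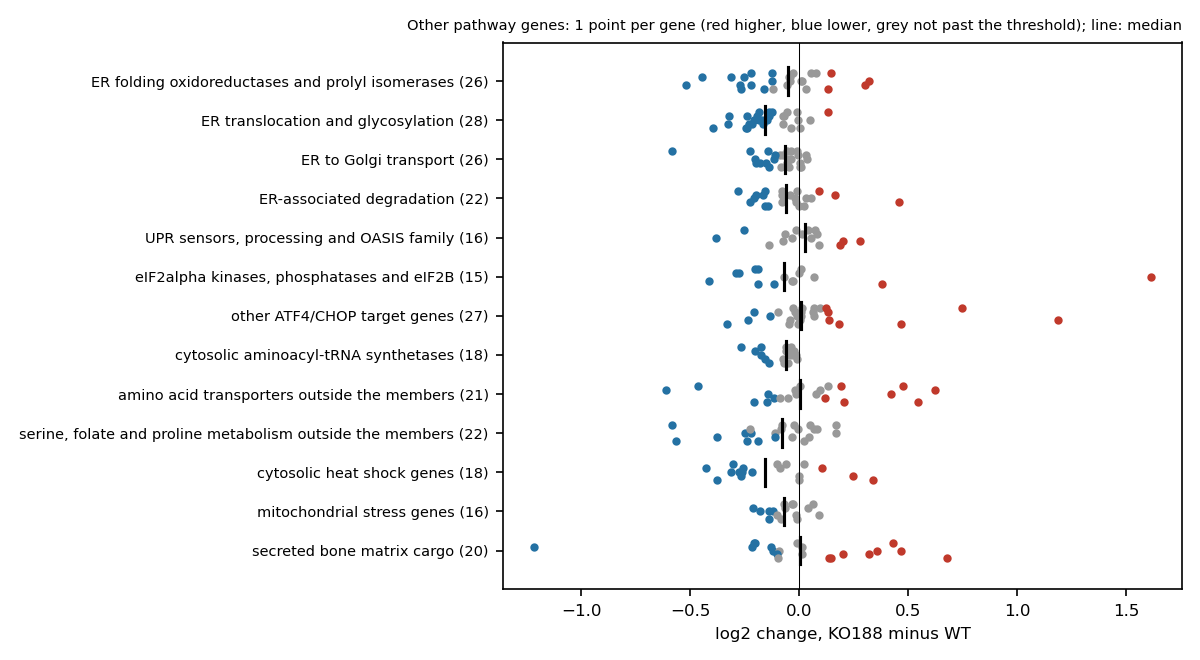
Log2 change (KO188 minus WT, 3 arrays each) of each measured gene of 13 pathway lists, with the number measured in brackets and a black line at the list's median. Red points rose, blue points fell and grey points did not pass. Translocation and glycosylation genes (18 of 28 lower) and heat shock genes (9 of 18 lower) have the lowest medians, at -0.16, and the point at 1.62 is Eif2ak2.

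The cells were checked against markers. Stromal markers were bright, with an array mean of 10.51 to 10.56 in WT and 10.76 to 10.81 in KO188, and 8 of 10 rose, among them Pdgfra (0.87), while Lepr and Thy1 did not pass. Of 6 osteoblast markers 3 rose, Alpl among them (2.08), and Phex fell by 0.16, but 4 of the 6 had levels under the receptor guide of 6.72. The array mean ran from 7.78 to 7.80 in WT and from 8.19 to 8.24 in KO188. Of 7 adipocyte markers 2 fell, Pparg (-1.86) and Fabp4 (-0.33), and Lpl rose by 0.54, with means of 7.09 to 7.10 against 6.83 to 6.90. Of 10 markers of B and plasma cells, which use the XBP1 pathway heavily, 0 passed limma's test, and 6 lay under the guide. The means were 6.40 to 6.47 in WT and 6.38 to 6.45 in KO188. Among macrophage markers 1 of 15 rose (Mpeg1, 1.32), with means of 6.51 to 6.53 against 6.55 to 6.64. The median change of these 15 was -0.02, and 11 of them, Mpeg1 included, lay under the guide. Among osteoclast markers 1 of 8 rose (Ctsk, 0.88), and of 9 granulocyte and 3 erythroid markers 0 passed. The endothelial marker Kdr rose by 0.24 at a level under the guide, 1 of 7. In bulk RNA, more cells of a type and more RNA per cell cannot be told apart. Most stromal markers and some osteoblast and adipocyte markers differed between the groups, as did some stress genes. Of the adipocyte markers 4 of 7 were not called, with a list median of -0.01, and 2 of the 6 osteoblast markers were not called. The part of such markers in these results was not tested.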

How the data were processed

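The authors' deposited table holds log2 values for 35556 probe sets on 6 arrays. Per the submitters' processing notes the tools were Affymetrix Expression Console, Partek and RMA, whose versions and roles are unstated. RMA understates changes of dim probe sets. Depth does not apply, and the number of arrays limits the precision. The sources used here do not give the authors' annotation or genome build.

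Probe sets were named through GEO's platform annotation: 21789 have 1 symbol, 1621 have several and got no name, and 12146 are not listed. By Entrez identifier 21698 matched RefSeq. The probe set with the highest 6-array mean stood for a gene, which left 19938 tested genes without a filter. KO188 minus WT was fitted with limma 3.58.1 in R 4.3.3 (lmFit, eBayes), and p-values were adjusted by Benjamini-Hochberg over the whole table, with a threshold of 0.05. The fit was tested on simulated data. Figures used matplotlib 3.10.9.

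The members, arms and lists were chosen with earlier results of these data known. Values on every array are given for members past the test with a change of at least 0.3 and for Hspa5, Xbp1, Atf6, Ern1, Eif2ak3, Atf4 and Ddit3; array values of further members were added after seeing them. From each other list up to 3 called genes with the lowest p are named, and of the marker lists those singled out after their values were seen. Of 295 list entries 275 were measured, and of 84 marker entries 75. A protein table was not used here. Alternatives covered scaling, dim genes, probe set choice, variance model, the replicate number as a block and each array left out.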

Additional observations from a re-analysis of the deposited data

How the results depend on the processing

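Of the 26 called members 17 kept their call in every alternative that tested them (8 in the ER arm and 9 in the ATF4/CHOP arm), 9 lost it in at least 1, and 0 changed sign. Of the other 19, 11 passed in at least 1 alternative. With median centring 5126 in place of 3294 genes were called lower, the median of all genes was -0.0572, that of the ER arm -0.1589 with 15 lower calls in place of 9, and that of the ATF4/CHOP arm -0.0217 in place of 0.0302. It was -0.1382 for amino acid supply and 0.107 for the factors and effectors, with 2 of the latter lower in place of 1. Quantile normalization gave medians of -0.0662 for the ER arm and 0.1157 for the factors and effectors, and 3 lower amino acid supply genes in place of 5. With dim genes left out or an eBayes trend 14 ER arm genes were lower, and 0 and 2 amino acid supply genes higher in place of 1. With 1 array left out, lower calls ran from 2 to 5 in the ATF4/CHOP arm and from 1 to 4 in amino acid supply, and higher calls in the latter from 0 to 1. Signs turned for 6 members, none of them called. With median centring Hspa5 was -0.0501, Psph -0.0323 and Slc3a2 -0.0111, and with quantile normalization Calr was 0.0028 and Ddr2 0.0315. With 1 array left out Hspa5 ran from -0.0052 to 0.0102 (-0.0043 without KO188 replicate 2), Dnajb11 from -0.0518 to 0.0102 (0.0034 without KO188 replicate 3) and Ddr2 from -0.0188 to 6e-04. The cause was not tested.

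Same-numbered arrays did not deviate together (r from -0.03 to 0.02 across genes), so the numbers were not taken as pairs. With the replicate block, 20 of the 26 members were called, lower calls were 3 in place of 6 in the ATF4/CHOP arm and 2 in place of 5 in amino acid supply, and 2271 genes were higher and 2748 lower over all genes.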
